A study of Arabidopsis thaliana with 6 samples.

Results

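The 10 photoreceptor genes of Arabidopsis thaliana were followed in RNA-seq libraries of whole seedlings, 3 from a prmt5 mutant and 3 from the wild type accession Col (WT). The genes were taken by their locus numbers, 10 of the 33602 genes counted, and comprise 5 phytochromes (PHYA to PHYE), 2 cryptochromes (CRY1, CRY2), 2 phototropins (PHOT1, PHOT2) and UVR8. The mutant is in the Col background, and the labels name neither its allele nor a second mutant line. Both genotypes were cultured alike on agarose medium, without added treatment, under constant white light at 22 °C, and whole plants of 9 days were pooled for RNA. PRMT5 methylates arginines, among others in core spliceosome proteins, and the study asks what its loss does to transcript levels and to splicing.

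Plants read the colour, direction and strength of light through these receptors. Phytochromes carry a linear tetrapyrrole and switch between red- and far-red-absorbing forms. Cryptochromes and phototropins absorb blue light through flavins, the cryptochromes acting mainly on growth and flowering and the phototropins, which are light-activated kinases with a pair of LOV domains, on bending, stomatal opening and chloroplast movement. UVR8 senses UV-B through its own tryptophans and, once monomeric, binds the ubiquitin ligase COP1.

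The libraries held 51446743, 41465842 and 67300273 gene counts in prmt5 and 69699931, 38564256 and 75461631 in WT. As a check of the labels, PRMT5 RNA itself did not pass the test (log2 change 0.11, SE 0.07, edgeR adjusted p 0.30). Its annotated junction from 15132629 to 15132725 on chromosome 4 had 5, 3 and 17 counts in prmt5 against 104, 83 and 116 in WT. That junction was picked from these data as the tested PRMT5 junction with the lowest log2 change, so it is not an independent check. Coverage at the 5′ end relative to the 3′ end, as a median over 1158 long genes, was lowest in prmt5 replicate 1 (0.519) and WT replicate 2 (0.393), and was 0.701 and 0.719 in the other prmt5 libraries and 0.727 and 0.642 in the other WT libraries. Among markers of cell types that whole seedlings hold, 2 leaf mesophyll genes summed to 23220 to 25300 CPM (counts per 1000000 of the library) in prmt5 and 26630 to 31510 CPM in WT, 2 guard cell genes to 31.5 to 40.2 CPM in prmt5 and 24.2 to 31.7 CPM in WT, and 3 root genes to 1948 to 2442 CPM in prmt5 and 2154 to 2547 CPM in WT. Within these sums the single genes differed. Of the guard cell genes, MYB60 had a log2 change of 1.13 and FAMA of -0.16. The root genes IRT1, SCR and PYK10 had 0.87, -0.30 and -0.14, and the mesophyll genes LHCB1.3 and RBCS1A -0.53 and -0.07. Of these, MYB60, SCR and LHCB1.3 passed the gene test, while FAMA, IRT1, PYK10 and RBCS1A did not. IRT1 had 88.2, 34.0 and 40.7 CPM in the WT libraries (edgeR adjusted p 0.17). The 3 flower genes stayed between 0.174 and 0.261 CPM in prmt5 and between 0.332 and 0.663 CPM in WT. In whole seedlings, a change in the number of cells of a type and a change in RNA per cell cannot be told apart, and the part of these shifts in the results below was not tested.

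At the level of whole genes, PHOT2 and PHYD were the photoreceptors with more RNA in prmt5, PHOT2 at 1.94-fold and PHYD at 1.53-fold of WT. UVR8 passed the threshold narrowly at 1.13-fold. The other 7 receptors did not pass. In all, 3 of 10 photoreceptor genes were called, all higher in prmt5, where 33.3% of the 22509 genes tested were called and 17.9% were called as higher (edgeR quasi-likelihood test, adjusted p under 0.05). The share of receptors called thus lies near that of all genes. The median log2 change over the 10 receptors was 0.06, and over all genes it was 0.01.

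**Figure D1:**
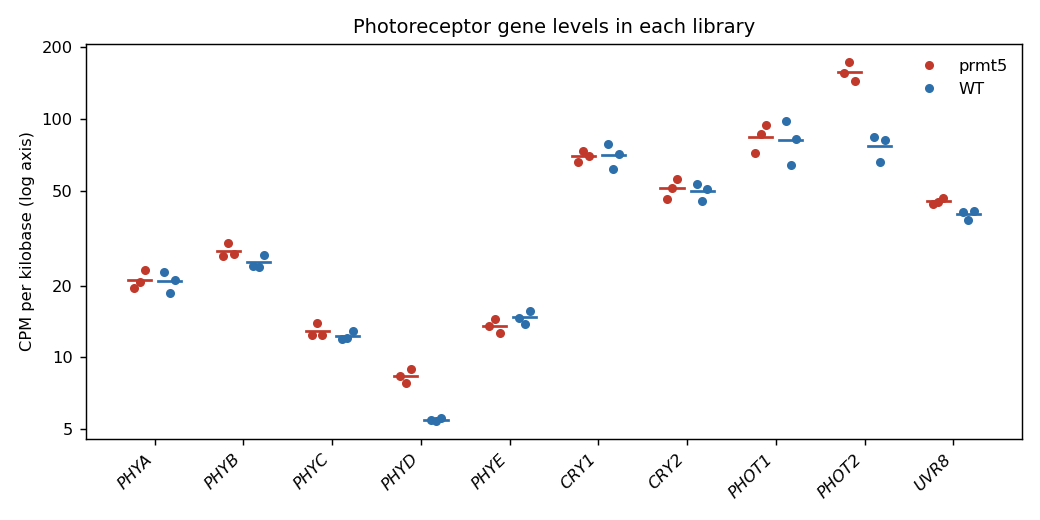
Level of each photoreceptor gene in CPM per kilobase of exon (log axis), with 1 point per library and a bar at the mean, for prmt5 (red, left) and WT (blue, right). PHOT2 and PHYD are the genes whose prmt5 points all lie well above their WT points.

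PHOT2 (AT5G58140, chromosome 5, 23524427 to 23533111 in TAIR10 coordinates, plus strand) encodes the phototropin that acts in strong blue light and drives the chloroplast avoidance movement. It had 587, 640 and 539 CPM in the prmt5 libraries, against 324, 266 and 318 CPM in WT. Every prmt5 library lay above every WT library, and the log2 change was 0.96 (SE 0.10, edgeR adjusted p 4.8e-05). The last exon bin of PHOT2, a counted stretch of exon, also holds the neighbouring gene AT5G58150, which itself did not pass the test (log2 change 0.11, adjusted p 0.17). With that bin subtracted, the log2 change of PHOT2 was 1.03 (adjusted p 4.6e-05).

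PHOT1 (AT3G45780, chromosome 3, 16816866 to 16824210, plus strand), the phototropin of dim blue light, had 245, 294 and 322 CPM in prmt5 and 333, 218 and 280 CPM in WT. These ranges overlapped almost fully (log2 change 0.05, SE 0.16, edgeR adjusted p 0.84), and its sign turned to -0.11 without WT replicate 2.

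PHYD (AT4G16250, chromosome 4, 9195602 to 9199486, minus strand), a close relative of phytochrome B with a lesser role in red light, had 29.0, 27.4 and 31.1 CPM in prmt5, against 19.1, 18.9 and 19.4 CPM in WT. The groups were separate, and the log2 change was 0.61 (SE 0.07, edgeR adjusted p 6.8e-05). The main red light receptor of green seedlings, PHYB (AT2G18790, chromosome 2, 8139881 to 8144430, plus strand), had 106, 120 and 109 CPM in prmt5 and 96.9, 96.1 and 108 CPM in WT. Its ranges overlapped and it did not pass (log2 change 0.16, adjusted p 0.13). It did pass, at 0.020, with libraries paired by the order of the library numbers in their labels, a pairing added after seeing the data.

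PHYA (AT1G09570, chromosome 1, 3095256 to 3100357, minus strand), the far-red receptor, is broken down in the light as a protein and had 75.1, 79.0 and 89.2 CPM in prmt5 and 87.5, 71.3 and 81.2 CPM in WT. PHYC (AT5G35840, chromosome 5, 14007826 to 14011764, plus strand), a red light receptor that works in complexes with other phytochromes, had 46.1, 51.6 and 45.8 CPM in prmt5 and 44.3, 44.6 and 47.7 CPM in WT. PHYE (AT4G18130, chromosome 4, 10042137 to 10046082, minus strand), another receptor of red light, had 52.1, 55.6 and 47.8 CPM in prmt5 and 55.5, 54.0 and 60.8 CPM in WT. All 3 had overlapping groups and did not pass in edgeR, with log2 changes of 0.02 (adjusted p 0.89), 0.07 (adjusted p 0.45) and -0.13 (adjusted p 0.19). PHYE shares an exon bin with AT4G18120, which itself was higher in prmt5 (log2 change 0.32, edgeR adjusted p 0.0072). With that bin subtracted, the log2 change of PHYE was -0.12.

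CRY1 (AT4G08920, chromosome 4, 5724103 to 5727253, plus strand), the blue light receptor of seedling de-etiolation, had 168, 188 and 179 CPM in prmt5 and 201, 158 and 182 CPM in WT. CRY2 (AT1G04400, chromosome 1, 1185550 to 1188517, minus strand), which promotes flowering, had 116, 129 and 141 CPM in prmt5 and 134, 114 and 127 CPM in WT. Neither passed in edgeR, with log2 changes of -0.02 (adjusted p 0.90) and 0.04 (adjusted p 0.77), and both groups overlapped in both genes. The UV-B receptor UVR8 (AT5G63860, chromosome 5, 25554508 to 25559499, minus strand) had 93.1, 95.3 and 98.3 CPM in prmt5, against 86.1, 79.9 and 87.2 CPM in WT. Its groups did not overlap, and its log2 change of 0.18 (SE 0.06) had an edgeR adjusted p of 0.049, which was above 0.05 in 12 of 15 alternative fits, including each of the 6 that left out 1 library.

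Per kilobase of exon, with bins shared with a neighbouring gene taken out of PHOT2 and PHYE, PHOT2 stood alone at the top in prmt5 at 158 ± 14.5 CPM per kb (SD, n = 3). In WT it averaged 77.4 ± 9.79 CPM per kb (SD, n = 3), between PHOT1 at 81.4 ± 16.9 and CRY1 at 70.6 ± 8.48, and these 3 overlapped one another in turn. Below PHOT2 in prmt5, PHOT1 had 84.3 ± 11.3 and CRY1 69.8 ± 3.87 CPM per kb, and their libraries overlapped. CRY2, UVR8, PHYB, PHYA, PHYE, PHYC and PHYD followed in this order in both genotypes, from 51.2 ± 5.07 to 8.34 ± 0.530 CPM per kb in prmt5 and from 49.9 ± 4.06 to 5.47 ± 0.0728 CPM per kb in WT. Neighbours in this part of the order did not overlap in WT, while in prmt5 CRY2 overlapped UVR8 and PHYE overlapped PHYC.

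Each intron was then tested as the ratio of its count to the count of its gene. In 9 of the 10 photoreceptor genes, all but PHYB, at least 1 intron was called as raised in prmt5. Of 77 introns, 71 had enough counts to be tested. In edgeR, 18 of these 71 were raised in prmt5 and 1 was lowered, where 21.6% of 53291 introns in all genes were raised and 0.518% were lowered (adjusted p under 0.05). The share of receptor introns raised therefore lies close to that of all introns. A positive log2 change, called or not, was seen in 49 of the 71 receptor introns and in 75.6% of all introns tested. The median log2 change was 0.34 over the receptor introns and 0.37 over all introns, a shift over the introns of all genes. With that shift removed, 11 of the 18 remained raised and 3 introns were lowered, the PHOT2 one, CRY1 coding intron 3 and PHYC coding intron 1. Counts of the PHYC intron include reads spliced at an upstream acceptor, described below. Genes with at least 1 raised intron made up 49.6% of 14367 genes, and 83.9% of the 2136 genes with 7 or more tested introns. Only PHOT1, PHOT2 and UVR8 had that many, with 19, 22 and 10 tested introns, so the second share applies to them alone. The other receptors had 1 to 5, and the median over all genes with tested introns was 3.

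**Figure D2:**
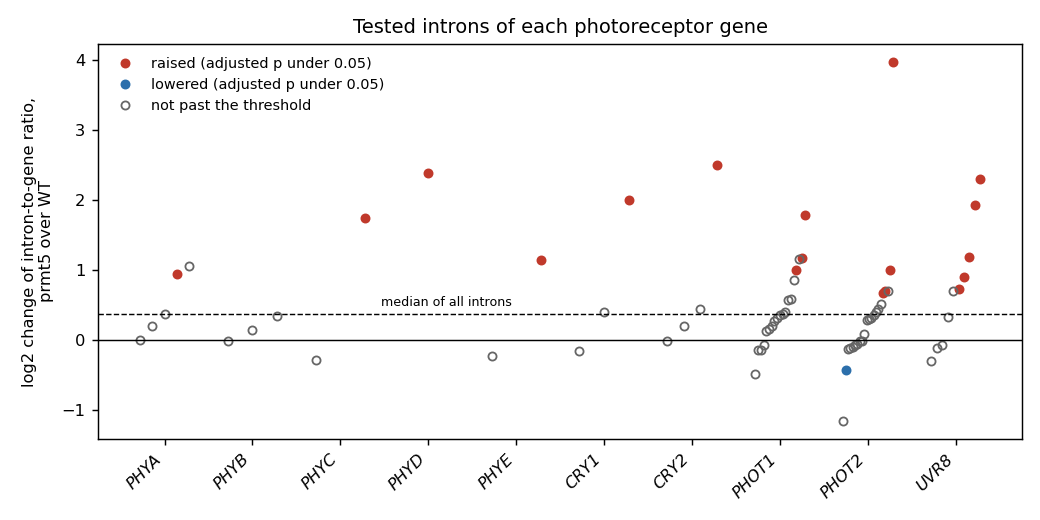
Log2 change of the ratio of intron to gene counts, prmt5 over WT, for each tested intron of the photoreceptor genes. Filled points passed adjusted p under 0.05, the dashed line is the median of all introns at 0.37, and PHOT2 holds both the highest value at 3.97 and the only lowered intron.

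The largest change among the receptor introns was in PHOT2, in coding intron 18. Coding introns are counted here from the start codon, and this one lies at 23529219 to 23529316 on chromosome 5, 98 bases long. RefSeq lists 7 transcripts of PHOT2, of which 6 splice it out. It is shown whole, with 15 exon bases on each side and with the first 6 and last 3 intron bases in capitals. The intron at the same place in PHOT1, coding intron 17, is shown for comparison. Sequences are from RefSeq's TAIR10.1 assembly, plus strand, at chr5:23529204-23529331 and chr3:16823260-16823376.
PHOT2 coding intron 18: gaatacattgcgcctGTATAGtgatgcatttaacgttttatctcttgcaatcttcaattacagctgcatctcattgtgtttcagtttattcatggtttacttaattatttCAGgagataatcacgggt
PHOT1 coding intron 17: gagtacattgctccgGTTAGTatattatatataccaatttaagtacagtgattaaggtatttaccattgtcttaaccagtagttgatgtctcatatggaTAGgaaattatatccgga

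Counts in PHOT2 coding intron 18 were 1497, 1194 and 1628 in prmt5, against 57, 30 and 72 in WT. They made up 4.76%, 4.47% and 4.38% of the gene count in prmt5 and 0.265%, 0.287% and 0.312% in WT. The groups were far apart, and the log2 change of the ratio was 3.97 (SE 0.13, edgeR adjusted p 3.4e-25), the third smallest p among all introns tested. The change was 3.60 (adjusted p 1.4e-23) with the median shift removed and 3.93 (adjusted p 1.7e-31) without prmt5 replicate 1 and WT replicate 2.

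Counts in the intron were also set against its neighbours in the gene. Per base, the intron reached 63.0%, 67.6% and 64.5% of the mean of its flanking exon bins in prmt5, against 3.77%, 3.24% and 4.19% in WT. A read that touches 2 bins adds to both, so short bins such as these read high. Reads that span the splice junction numbered 241, 161 and 284 in prmt5 and 624, 372 and 700 in WT. Relative to the mean of the neighbouring junctions they came to 25.2%, 22.8% and 28.8% in prmt5, against 100%, 97.8% and 102% in WT, so the groups were again separate.

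Tested against the gene count, this was the only one of 76 annotated photoreceptor junctions that changed (log2 change -2.13, SE 0.11, edgeR adjusted p 3.2e-12). Of 98932 annotated junctions in all genes, 0.903% were called. Without WT replicate 1 there were 2 calls, the second at PHOT2 coding intron 20. With libraries paired by library number there were 4, the other 3 at PHOT2 coding introns 19 to 21 with log2 changes of -0.31, -0.31 and -0.23. The reading frame carried into the intron meets a stop codon that ends at its 6th base. When the counts of this intron were subtracted from the gene, the log2 ratio of mean PHOT2 CPM between prmt5 and WT was 0.90, against 0.96 with them. This subtraction takes out only reads inside the intron, and the other reads of transcripts that keep it remain. It therefore does not give the level of PHOT2 RNA spliced at this intron, which was not tested.

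**Figure D3:**
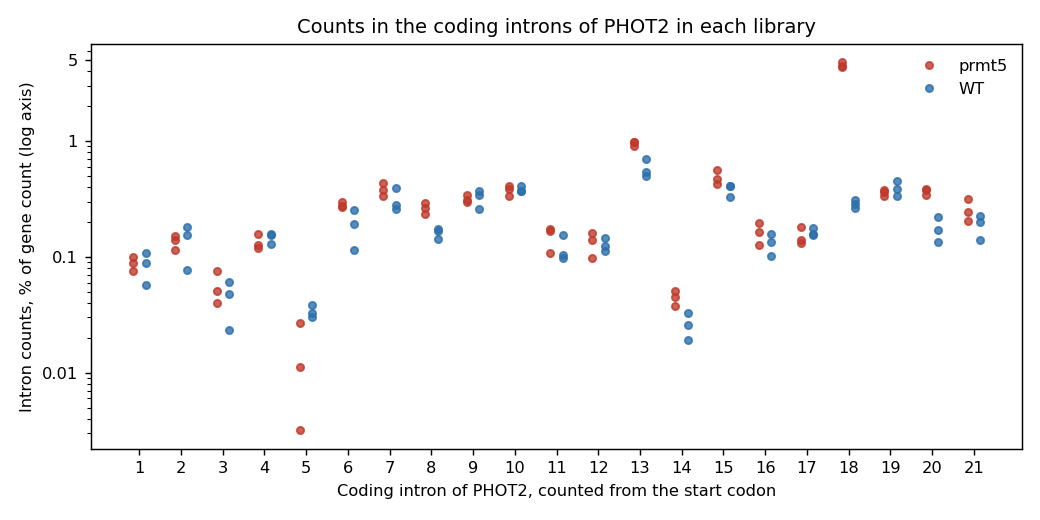
Counts in each coding intron of PHOT2 as a percent of the gene count (log axis), with 1 point per library for prmt5 (red, left of each tick) and WT (blue, right). At intron 18 the prmt5 libraries sit between 4.38% and 4.76%, above all others, and the WT libraries between 0.265% and 0.312%.

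A further 3 PHOT2 introns were raised, all by less. Coding intron 20, at 23529566 to 23529645, held 0.341%, 0.382% and 0.377% of the gene count in prmt5, against 0.172%, 0.134% and 0.221% in WT. The groups did not overlap (log2 change 1.00, SE 0.20, edgeR adjusted p 1.9e-04). Coding intron 13, at 23528151 to 23528246, held 0.977%, 0.913% and 0.971% in prmt5, against 0.544%, 0.498% and 0.694% in WT, with separate groups (log2 change 0.70, SE 0.14, adjusted p 2.3e-04, and 0.13 with the median shift removed). Coding intron 8 averaged 0.263% ± 0.0290 in prmt5 and 0.162% ± 0.0157 in WT (SD, n = 3 each; log2 change 0.67, SE 0.22, edgeR adjusted p 0.021). That call was lost when WT replicate 1 (0.057) or 3 (0.053), or prmt5 replicate 1 (0.052) or 2 (0.090), was left out, and with the median shift removed (0.42).

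The lowered PHOT2 intron lies in the 5′ UTR at 23524550 to 23524722 and overlaps an alternative first exon. The bin of that exon, at 23524604 to 23524722, held 0.455%, 0.5615% and 0.4627% of the gene count in prmt5. In WT it held 0.7767%, 0.6512% and 0.5722%, and it did not pass the exon bin test. Most counts of the intron thus also fall in this exon, so its ratio cannot be read as intron retention alone. The intron held 0.499% ± 0.0575 of the gene count in prmt5 and 0.668% ± 0.101 in WT (SD, n = 3 each; log2 change -0.43, SE 0.16, edgeR adjusted p 0.042). The call was lost in 8 of 15 alternatives and turned to a log2 change of 0.52 in 1 more, where the gene count was not used as offset. Its adjusted p was 0.32, 0.15 and 0.14 without WT replicate 1, prmt5 replicate 1 and prmt5 replicate 3, 0.18 with junction reads as offset and 0.12 in DESeq2. The junction that leaves the same donor, from 23524549 to 23524723, took 12.7%, 8.65% and 9.32% of its cluster in prmt5, against 19.2%, 18.1% and 15.2% in WT. Its log2 change of -0.84 missed the threshold (diffSpliceDGE adjusted p 0.060). It passed without prmt5 replicate 1 (adjusted p 0.045) and with libraries paired by library number (0.035).

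PHOT1 had 3 raised introns of 19 tested. Coding intron 11, at 16822156 to 16822248 on chromosome 3, held 0.220%, 0.147% and 0.221% of the gene count in prmt5, against 0.0679%, 0.0818% and 0.0345% in WT (log2 change 1.78, SE 0.35, edgeR adjusted p 1.2e-04). Coding intron 18, at 16823527 to 16823614, held 0.563%, 0.513% and 0.491% in prmt5, against 0.240%, 0.304% and 0.256% in WT (log2 change 1.00, SE 0.20, adjusted p 1.8e-04). Coding intron 15, at 16822842 to 16822941, held 0.297%, 0.342% and 0.212% in prmt5, against 0.113%, 0.152% and 0.118% in WT (log2 change 1.16, SE 0.28, adjusted p 0.0014). In all 3, each prmt5 library lay above each WT library. None of the PHOT1 junctions passed the usage test.

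The phototropins descend from a common gene, and the lengths of their coding exons place 19 of the 21 coding introns of PHOT2 opposite the 19 of PHOT1. Among these 19 pairs, 1 was raised in both genes, 3 in PHOT2 alone and 2 in PHOT1 alone. PHOT1 coding intron 5 had too few counts to be tested and is taken here as not raised. Differences between the paralogs were not tested. The shared one joins PHOT2 coding intron 20 and PHOT1 coding intron 18, each with a log2 change of 1.00. The partner of PHOT2 coding intron 18, PHOT1 coding intron 17, held 0.297%, 0.204% and 0.171% of its gene count in prmt5 and 0.168%, 0.187% and 0.162% in WT. These ranges overlapped (log2 change 0.36, SE 0.27, edgeR adjusted p 0.41).

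**Figure D4:**
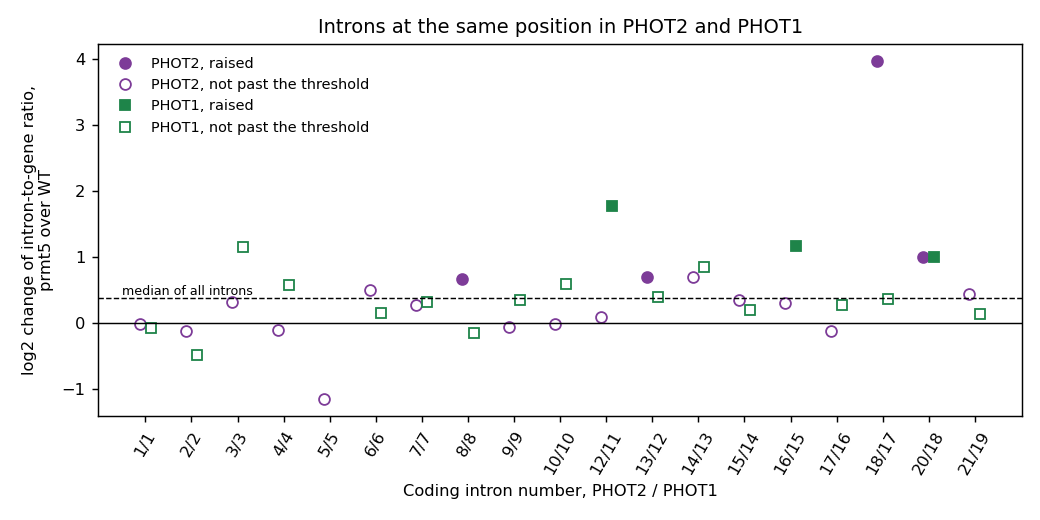
Log2 change of the ratio of intron to gene counts, prmt5 over WT, for introns at the same position in PHOT2 (purple circles) and PHOT1 (green squares), with filled symbols for those past adjusted p under 0.05. PHOT2 coding intron 18 stands at 3.97 beside 0.36 for its PHOT1 partner, and the pair 20 and 18 stands at 1.00 in both genes. PHOT1 coding intron 5 was not tested and has no point.

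In UVR8, 5 of 10 tested introns were raised, and they are the 5 consecutive coding introns 5 to 9. Coding intron 5, at 25556534 to 25556940 on chromosome 5, held 1.24%, 1.38% and 1.22% of the gene count in prmt5, against 0.245%, 0.256% and 0.269% in WT. The groups were far apart (log2 change 2.30, SE 0.27, edgeR adjusted p 5.3e-09). Coding intron 6 held 0.521%, 0.981% and 0.413% in prmt5, against 0.158%, 0.192% and 0.143% in WT (log2 change 1.93, SE 0.38, adjusted p 1.1e-04). Coding intron 9 held 1.10%, 1.41% and 1.56% in prmt5, against 0.350%, 0.799% and 0.712% in WT (log2 change 1.18, SE 0.25, adjusted p 2.5e-04). Neither group of libraries overlapped the other in introns 6 and 9.

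Coding introns 7 and 8 of UVR8 changed less, with log2 changes of 0.90 (SE 0.29, edgeR adjusted p 0.019) and 0.73 (SE 0.23, adjusted p 0.015). Intron 7 held 0.644% ± 0.0590 of the gene count in prmt5 and 0.356% ± 0.0660 in WT, and intron 8 held 1.34% ± 0.233 in prmt5 and 0.838% ± 0.270 in WT (SD, n = 3 each). In intron 8, one prmt5 library at 1.12% lay below one WT library at 1.15%. The call on intron 7 was lost without WT replicate 3 (0.13), prmt5 replicate 1 (0.052) or prmt5 replicate 3 (0.080). That on intron 8 was lost when WT replicate 1 (0.084) or 3 (0.13) or prmt5 replicate 2 (0.10) was left out. Both also missed the threshold with the median shift removed (0.24 and 0.34). The reads across the junction of intron 5 came to 106%, 106% and 103% of its neighbours in prmt5 and 119%, 118% and 123% in WT, and the UVR8 junctions did not pass the usage test.

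Each cryptochrome had 1 raised intron. In CRY1 it was coding intron 1, at 5724594 to 5724760 on chromosome 4, with 0.956%, 0.703% and 0.802% of the gene count in prmt5, against 0.300%, 0.146% and 0.144% in WT. The groups were separate (log2 change 1.99, SE 0.25, edgeR adjusted p 3.5e-08). In CRY2 it was a stretch of an intron in the 5′ UTR, at 1188074 to 1188186 on chromosome 1, with 0.419%, 0.428% and 0.390% in prmt5, against 0.0561%, 0.112% and 0.0651% in WT. These groups were separate too (log2 change 2.49, SE 0.39, adjusted p 2.9e-06), on 23 to 38 counts in prmt5 and 5 or 6 counts in WT. The most used junction there joins 1188006 and 1188187, so the rest of that intron is an exon bin at 1188007 to 1188073. That bin held 0.338%, 0.465% and 0.390% of the gene count in prmt5, against 0.191%, 0.313% and 0.260% in WT. Its log2 change was 0.68 (edgeR unadjusted p 0.027), and it did not pass the exon bin test.

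Of the phytochromes, 4 had 1 raised intron each, while none of the 3 introns of PHYB passed the test. PHYD coding intron 1, at 9197227 to 9197310 on chromosome 4, held 1.87%, 0.876% and 1.82% of the gene count in prmt5, against 0.316%, 0.405% and 0.214% in WT. The groups did not overlap (log2 change 2.38, SE 0.47, edgeR adjusted p 1.2e-04), on 29, 10 and 39 counts in prmt5 and 4, 3 and 3 in WT. Of the 3 PHYD introns, only this 1 could be tested. It passed the filter, a mean of at least 5 counts over all libraries, only through its prmt5 counts. Its 84 bases are a multiple of 3 and hold no stop codon in the reading frame. In PHYB, coding intron 1 had a log2 change of 0.14 (SE 0.44, adjusted p 0.89), coding intron 2 of -0.02 (SE 0.48, adjusted p 0.98) and coding intron 3 of 0.34 (SE 0.21, adjusted p 0.28).

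The other 3 phytochrome calls each depended on single libraries. PHYA intron 1, in the 5′ UTR, held 1.02% ± 0.255 of the gene count in prmt5 and 0.532% ± 0.0479 in WT (SD, n = 3 each; log2 change 0.94, SE 0.26, edgeR adjusted p 0.0059), and its adjusted p was 0.067 without prmt5 replicate 1. PHYE coding intron 2 held 1.09% ± 0.354 in prmt5 and 0.516% ± 0.168 in WT (log2 change 1.14, SE 0.32, adjusted p 0.0067), and leaving out WT replicate 3 or prmt5 replicate 1 gave 0.053 and 0.097. PHYC coding intron 2 held 0.567% ± 0.239 in prmt5 and 0.178% ± 0.0963 in WT (log2 change 1.74, SE 0.50, adjusted p 0.0088). It had 12, 18 and 12 counts in prmt5 and 3, 5 and 5 in WT, so it too passed the count filter only through prmt5. Its adjusted p was 0.060, 0.052 and 0.094 without WT replicate 1, WT replicate 3 and prmt5 replicate 2. All 3 missed the threshold with the median shift removed, at 0.15, 0.10 and 0.060.

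The 5′ splice site of an intron, where the U1 and U6 small nuclear RNAs pair, is compared here by its last 3 exon bases and, in capitals, first 6 intron bases. Shown first, from TAIR10.1 on the strand of each gene, are the sites of the 8 raised introns with a log2 change above 1.5. After them come 3 sites chosen after their values were seen, those of PHOT2 coding intron 20 and PHOT1 coding introns 18 and 15, and then 2 paralogous introns that did not pass.
PHOT2 coding intron 18: cctGTATAG
UVR8 coding intron 5: ggtGTAAGC
UVR8 coding intron 6: cagGTTTCA
CRY1 coding intron 1: atgGTCTGT
CRY2 intron of the 5′ UTR: ctgGTAAAA
PHOT1 coding intron 11: aagGTCTGA
PHYD coding intron 1: aagGTTTAT
PHYC coding intron 2: aggGTACTG
PHOT2 coding intron 20: cctGTGAGC
PHOT1 coding intron 18: cctGTAATG
PHOT1 coding intron 15: aagGCAATC
PHOT1 coding intron 17: ccgGTTAGT
PHYB coding intron 1: gagGTATAT

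A log2 odds score was given to each site from the base frequencies at these 9 positions in 50608 introns, whose median score was 7.05. PHOT2 coding intron 18 scored 1.89, at percentile 2.12 of them, whereas its PHOT1 partner scored 8.55 (percentile 80.0). The raised pair of phototropin introns scored 3.67 in PHOT2 and 2.80 in PHOT1, and the PHOT1 coding intron 15, which begins with GC in place of GT, scored 2.59. These 2 PHOT1 introns and PHOT2 coding intron 18 were the 3 tested receptor introns under percentile 5. A start with GC was also found in PHOT2 coding intron 11, which was not raised, and in UVR8 coding intron 8, which was. The other sites shown scored 3.96 and 5.97 in UVR8, 5.55 in CRY1, 6.95 in CRY2, 6.32 in PHOT1 coding intron 11, 6.41 in PHYD, 4.73 in PHYC and 8.06 in PHYB.

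Across the receptors, the 18 raised introns had a median score of 5.43 and a range of 1.89 to 8.79, and the 53 other tested introns a median of 7.09 and a range of 3.64 to 9.25. Spearman's rho between the score and the log2 change was -0.33 over the 71 introns, and -0.30 over 70 without PHOT2 coding intron 18. This is a description across introns, which share genes and libraries. Median lengths were alike, 99 bases for raised introns and 97 for the others. In the coding region, 15 of 16 raised introns held a stop codon in the incoming frame, as did 58 of all 66 tested coding introns.

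**Figure D5:**
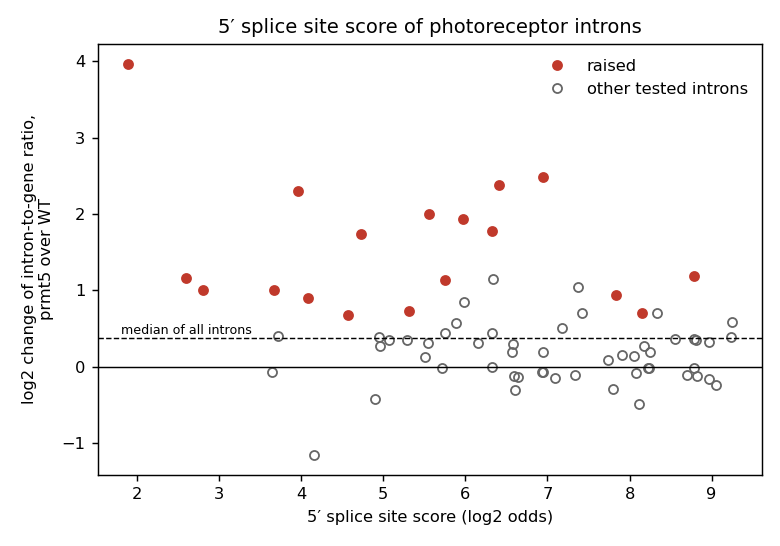
Score of the 5′ splice site (log2 odds over 9 bases) against the log2 change of the ratio of intron to gene counts, prmt5 over WT, for the 71 tested photoreceptor introns. Filled points are the 18 raised introns, and PHOT2 coding intron 18 lies at the top left with the lowest score, 1.89, and the highest change, 3.97.

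Splice sites that compete with one another were tested within clusters of junctions that share a donor or an acceptor. Among 15 photoreceptor junctions tested, 1 was called, where 5.9% of 8106 junctions in all genes were called (diffSpliceDGE in edgeR, adjusted p under 0.05). It is an unannotated acceptor of PHOT2 coding intron 13, 10 bases upstream of the annotated one. Both acceptors are shown with their AG in capitals, at chr5:23528218-23528256 on the plus strand of TAIR10.1, the upstream one to the left.
PHOT2 coding intron 13 acceptors: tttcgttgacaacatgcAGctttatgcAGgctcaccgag

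The upstream acceptor took 230, 151 and 255 counts in prmt5 and 74, 37 and 107 in WT, or 20.5%, 17.1% and 20.5% of its cluster in prmt5 against 9.84%, 10.7% and 13.2% in WT. Every prmt5 library was above every WT library (log2 change 0.74, SE 0.17, adjusted p 0.0030), and the adjusted p was 0.060 without WT replicate 1. Reads spliced there leave 10 bases inside the counted intron, whose own counts were 307, 244 and 361 in prmt5 and 117, 52 and 160 in WT, so the intron ratio given above for coding intron 13 is not independent of this junction. In PHYC, coding intron 1 also uses an unannotated acceptor, 36 bases upstream of the annotated one. It took 14, 29 and 27 counts in prmt5 and 40, 30 and 50 in WT, or 37.1% ± 9.10 of the cluster in prmt5 and 52.9% ± 3.38 in WT (SD, n = 3 each), which did not pass (adjusted p 0.54). Reads spliced there leave 36 bases inside the counted intron. The intron ratio of PHYC coding intron 1, lowered once the median shift was removed, is therefore not independent of this junction.
PHYC coding intron 1 acceptors: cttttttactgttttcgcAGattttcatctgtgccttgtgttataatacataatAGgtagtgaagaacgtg

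Exon bins were also tested relative to their genes. None of 93 photoreceptor exon bins passed the edgeR test, where 0.121% of 129447 bins in all genes did. At an unadjusted p under 0.05 there were 8 bins, 7 of them in PHOT2, and diffSpliceDGE also called 0. All 7 PHOT2 bins were lower in prmt5. Those from 23529317 on, past PHOT2 coding intron 18, had log2 changes of -0.22, -0.28, -0.23, -0.23 and -0.46. In that stretch only the bin at 23529369 to 23529400 went the other way (0.59, edgeR unadjusted p 0.079). The bins at 23524546 to 23524549 and 23524604 to 23524722, near the gene start, had -0.53 and -0.44. The cause of these shifts was not tested. The lowest p belonged to the last PHOT2 bin, the one shared with AT5G58150, which held 13.1%, 11.5% and 12.2% of the gene count in prmt5, against 15.4%, 19.0% and 16.2% in WT (log2 change -0.46, SE 0.08, adjusted p 0.13). It passed without WT replicate 2 (log2 change -0.36, adjusted p 0.048). With libraries paired by library number 2 bins passed, this one (adjusted p 3.8e-04) and the PHOT2 bin before coding intron 20 (0.034).

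Genes that act beside the receptors changed in both directions. Of 31 genes in 4 lists, 6 were higher and 8 lower in prmt5, which is 14 of 31 where 33.3% of all genes were called, 17.9% as higher and 15.4% as lower (edgeR, adjusted p under 0.05). Among 6 partners of the phototropins, 3 were lower and 1 was higher. PKS4 and PKS2, phytochrome kinase substrate proteins that act in phototropism and leaf positioning, had 1.29 ± 0.319 and 21.3 ± 1.42 CPM in prmt5, against 4.14 ± 0.353 and 39.4 ± 7.94 CPM in WT (SD, n = 3 each). Their log2 changes were -1.67 (SE 0.19, adjusted p 9.3e-05) and -0.90 (SE 0.14, adjusted p 0.0022). RPT2, a phototropin signalling adaptor, had 220 ± 19.0 CPM in prmt5 and 294 ± 47.3 CPM in WT (log2 change -0.41, adjusted p 0.018). This list had 2 calls without prmt5 replicate 1 or without prmt5 replicate 2, in both of which RPT2 was lost. The median log2 change of the list was -0.29.

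Among 12 genes for the phytochrome chromophore and phytochrome partners, 2 were higher and 3 lower, with a median log2 change of 0.13. HY2 and HY1, the enzymes that make the chromophore from haem, both had less RNA in prmt5. HY2 had 9.87, 8.87 and 9.42 CPM in prmt5, against 12.6, 12.4 and 14.1 CPM in WT, and HY1 had 88.0 ± 5.56 CPM in prmt5 and 104 ± 3.86 CPM in WT (SD, n = 3 each). Their log2 changes were -0.48 (SE 0.09, edgeR adjusted p 0.0018) and -0.24 (SE 0.07, adjusted p 0.020). FAR1, a transcription factor of phytochrome A signalling, had 30.4 ± 0.120 CPM in prmt5 and 25.0 ± 0.455 CPM in WT (log2 change 0.28, SE 0.06, adjusted p 0.0030). The list had 2 calls without WT replicate 3 or without prmt5 replicate 1, and 3 without prmt5 replicate 3. HY1 was lost in the first pair of these.

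Among 9 genes of cryptochrome signalling and the COP1/SPA ubiquitin ligase, 2 were higher and 1 lower, with a median log2 change of -0.11. The list had 5 calls with libraries paired by library number, which added SPA1 (log2 change -0.15, adjusted p 0.038) and SPA4 (-0.15, 0.043). COP1, which marks light-signalling factors for breakdown, had 58.2 ± 2.90 CPM in prmt5 and 48.1 ± 1.39 CPM in WT (SD, n = 3 each; log2 change 0.27, SE 0.06, edgeR adjusted p 0.0060). Its partner SPA3 had 123.5, 140.8 and 113.2 CPM in prmt5 and 95.01, 97.65 and 107.3 CPM in WT (log2 change 0.33, adjusted p 0.014, and 0.060 without prmt5 replicate 2). BIC2, an inhibitor of cryptochromes, had 14.5 ± 1.47 CPM in prmt5 and 20.8 ± 2.25 CPM in WT (log2 change -0.51, SE 0.10, adjusted p 0.0023).

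Of 4 UVR8 partners and early UV-B targets, 1 was higher and 1 lower. RUP2, which returns UVR8 to its inactive dimer, had 7.84, 9.83 and 8.72 CPM in prmt5, against 18.3, 14.9 and 18.3 CPM in WT. Every prmt5 library was lower (log2 change -0.97, SE 0.11, edgeR adjusted p 7.8e-05). The early light-induced gene ELIP2 had 10.4, 9.21 and 8.19 CPM in prmt5, against 3.20, 5.87 and 6.15 CPM in WT (log2 change 0.88, SE 0.24, adjusted p 0.028). Its call was lost without WT replicate 2 (0.059), prmt5 replicate 1 (0.075) or prmt5 replicate 2 (0.069), which left 1 call in the list. The median log2 change of the list was 0.12.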

How the data were processed

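The deposited tables hold raw counts per gene, exon bin, intron and splice junction, whole numbers that the authors did not normalize. Per the submitters' processing notes, STAR and the TAIR10 build were used; for read length, strandedness and counting program, the sources used here give nothing. Counts then depend on an unstated treatment of strand, so genes that overlap others are uncertain. Among the genes named here these include PHOT2, PHYE, SPA3, SPA4, PYK10 and PRMT5. Coordinates were checked on TAIR10.1, where 98.5% of 110931 annotated junctions were flanked by GT and AG (0% after a shift of 1 base). No 50-base stretch of a receptor transcript occurred elsewhere in the genome.

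The test of gene counts was that of edgeR 4.0.16 (R 4.3.3, TMM, default filter, robust quasi-likelihood F test, genotype as the only term, Benjamini-Hochberg adjustment over all genes, two-sided). Introns and exon bins (mean of at least 5 counts over all libraries, in genes of at least 50) used the log of the gene count plus 0.5 as offset. Junction clusters were tested with diffSpliceDGE; the usage test of annotated junctions, the removal of the median shift and of shared bins, and the fit without 2 libraries were added after seeing the data. SE is the absolute log2 change over the square root of F. Alternatives used DESeq2 1.42.0, limma 3.58.1 and those in the closing section. Tests were tried on simulated data. Python 3.11.15 was used. The labels do not say whether libraries came from separate cultures, so p-values measure the spread between libraries.

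Replicate numbers did not pair the libraries. Libraries of the same rank by the number that ends their sample description deviated together (correlations of 0.12, 0.18 and 0.18); the labels state no shared batch, so that block is an alternative added after seeing the data. The receptors and lists were chosen with earlier results of these data known. Named were all receptors, all introns, bins and junctions past the threshold, every library's value for the 12 introns of smallest p, and up to 3 genes a list. Plants at 10 °C were not analysed here.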

Additional observations from a re-analysis of the deposited data

How the results depend on the processing

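PHOT2 and PHYD kept their calls and direction in all 15 alternatives, with log2 changes of 0.86 to 1.03 and 0.56 to 0.65. UVR8 missed the threshold with RLE size factors (adjusted p 0.065), upper quartile scaling (0.055), DESeq2 (0.052) and no filter (0.059). Uncalled genes changed sign near 0 when 1 library was left out, with log2 changes of -0.067 to 0.086 in PHYA, -0.117 to 0.063 in CRY1, -0.035 to 0.109 in CRY2 and -0.107 to 0.200 in PHOT1, and without prmt5 replicate 1 and WT replicate 2 together in PHYA (-0.016) and PHOT1 (-0.0071).

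With 1 library left out, 2 receptor genes were called each time, 14 to 20 introns, 0 to 1 exon bins, 0 to 2 junctions in the choice test and 1 to 2 in the usage test; the lists had 2 to 5, 2 to 4, 2 to 4 and 1 to 2 calls, in the order phytochrome, cryptochrome, phototropin and UVR8. Without both libraries of low 5′ coverage, an alternative chosen after seeing the data, there were 3 phytochrome list calls, 1 UVR8 list call, 1 exon bin and 2 junctions. Without the gene offset 35 introns were called, all raised, including the 18; the lowered PHOT2 intron then had 0.52. DESeq2 called 14 introns, all raised. Cluster totals as offset gave 4 junction calls, and a mean of at least 10 counts gave 2.

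With the replicate number as a block, the phytochrome list had 2 calls and UVR8 an adjusted p of 0.13, and all 18 raised introns remained, while the lowered one was lost (adjusted p 0.068). The correlations of same-numbered libraries were -0.11, -0.14 and -0.06. With libraries paired by library number (0.12, 0.18 and 0.18), 4 receptor genes were called, PHYB in addition (adjusted p 0.020, and UVR8 0.012), 5 genes of the cryptochrome list, 2 exon bins, 2 junctions in the choice test and 4 in the usage test; all 19 intron calls remained. Low counts limited 4 raised introns with a mean under 20, in PHYC, PHYD, CRY2 and UVR8, and 6 introns could not be tested.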
